A study of Mus musculus with 33 samples.

Results

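Alternative splicing was compared between myotubes homozygous for an expanded CTG repeat in Dmpk (480/480) and wild-type (Dmpk+/+) myotubes, both on the FVB strain. Every event in the authors' 5 tables for this comparison was taken, which gave 243 of the 549 events listed over the 4 comparisons of the series, with no exact duplicate row to drop. The events lie in 169 genes. The study sequenced total RNA after rRNA depletion from muscle, cultured myotubes and choroid plexus of mice whose own Dmpk gene carries the repeat, 33 libraries in all. Each group here had 3 libraries, and the labels give a different mouse as the origin of each. Wild-type and 480/480 mice share the FVB strain and differ, by the labels, in the Dmpk allele. The age of the mice and the way the myotubes were derived are absent from the labels. The edited allele carries 480 repeats and is expressed from the Dmpk locus in every cell that uses the gene, so no transgene promoter limits it to muscle.

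Myotubes are multinucleate muscle cells that form by fusion of cultured myoblasts, and they hold a young form of the contractile apparatus. In myotonic dystrophy type 1, RNA from the expanded repeat, which lies in the 3′ untranslated region (UTR) of DMPK, binds MBNL proteins and keeps them in nuclear foci. MBNL proteins are splicing regulators that bind YGCY words (Y is C or U) in RNA and drive the change from fetal to adult exon use, so many muscle exons in patients are spliced in their fetal pattern. CELF proteins act against MBNL at several of these exons. This is background from the field and was not measured in these libraries.

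The inclusion level gives the share, in percent, of transcripts with the exon, with the longer of both splice-site forms, or with the intron retained, and a change is the mean of the 480/480 libraries minus the mean of the wild-type libraries in percentage points. Errors are SD with n = 3 in each group. Listed events had at least 5 reads on average, an FDR of at most 0.05 and a change of 10 points or more, so each event named here had passed their test, and "rose" and "fell" refer to that. Events that failed it are not in the tables, and no background of tested events was used here. With 3 libraries a group, the smallest p that an exact two-sided permutation test allows is 0.10, and none was computed for single events. The read depth behind each value is unknown, and 82 of the 243 events have a library listed at exactly 100%, which gives no count of reads.

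Of the 25 genes listed as myotube markers, 5 (Cacna1s, Neb, Tnnt2, Tnnt3 and Ttn) carried 28 of the events, and none of the 28 markers of other cells in muscle cultures (fibroblast, endothelial, macrophage and similar genes) had an event. The tables show inclusion and no expression level, so the purity of the cultures was not measured, and a change in the mix of cells cannot be told apart from a change within cells.

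The 14 exons below are shown because the account of the muscle, membrane and cytoskeletal genes turns on them. They are whole coding exons from the GENCODE M21 transcripts (mm10), written 5′ to 3′ as DNA, and capitals mark the words of YGCY in DNA letters (TGCT or TGCC, or either with C as its first base) on the transcript strand.
Tnnt2: aggaagactggagtgaagaagaggaggacg
Tnnt3: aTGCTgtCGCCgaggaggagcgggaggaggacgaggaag
Cacna1s: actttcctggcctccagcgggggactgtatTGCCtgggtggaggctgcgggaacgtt
Cacna2d1: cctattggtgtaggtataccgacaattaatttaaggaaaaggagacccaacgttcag
Mbnl1: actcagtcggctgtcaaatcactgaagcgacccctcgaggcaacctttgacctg
Rilpl1: taaagaaggtcctttgagtgacgg
Reep1: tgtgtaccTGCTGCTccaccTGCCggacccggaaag
Prune2: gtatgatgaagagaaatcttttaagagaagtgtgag
Vps39: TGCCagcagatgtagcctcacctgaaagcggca
Fermt2: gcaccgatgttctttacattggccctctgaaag
Tjap1: gcctctcttagccacagctggatttttgca
Slain2: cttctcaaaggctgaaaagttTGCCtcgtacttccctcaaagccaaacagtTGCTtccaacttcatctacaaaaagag
Myof: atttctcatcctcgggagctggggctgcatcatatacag
Ablim1: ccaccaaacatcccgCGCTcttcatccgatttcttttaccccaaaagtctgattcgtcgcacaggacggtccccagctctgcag

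Of these 14 exons 6 hold such a word and 8 do not. All 14 have a length that is a multiple of 3, so that including or skipping them leaves the reading frame of the next exon as it was. Inclusion rose at Tnnt2, Tnnt3, Mbnl1, Tjap1 and Myof and fell at the others.

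**Figure D1:**
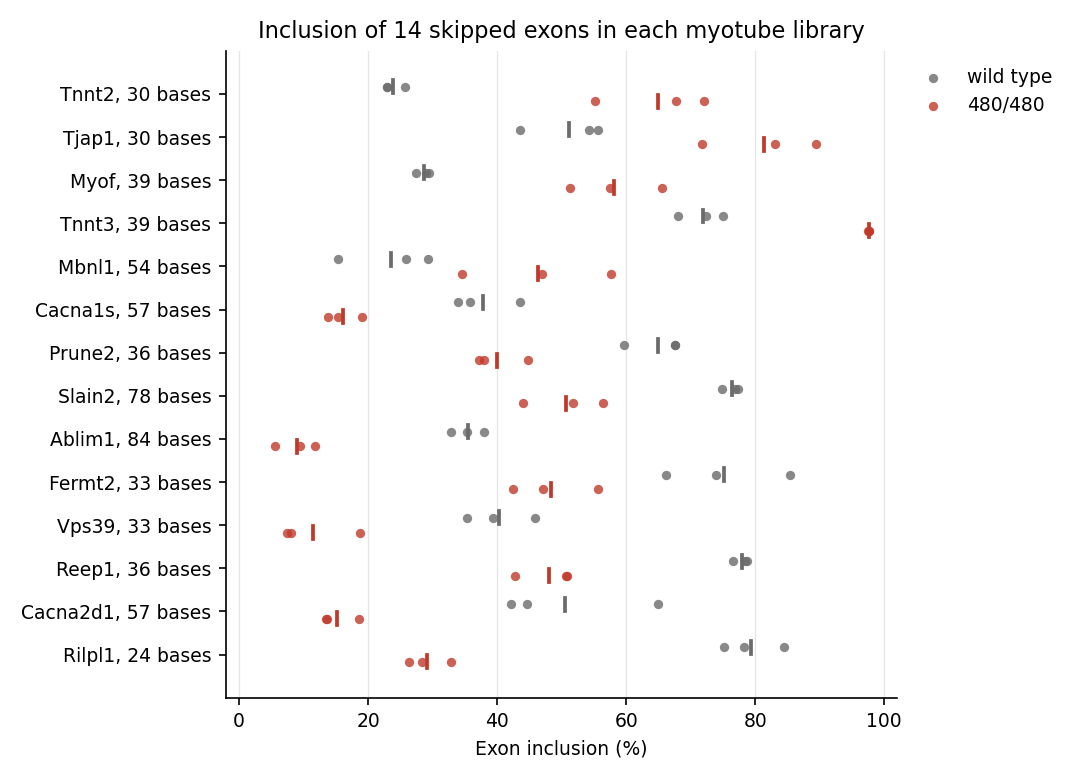
Exon inclusion in percent (horizontal axis) at the 14 exons whose sequences are printed, with grey points for the 3 wild-type and red points for the 3 480/480 libraries and a short bar at each mean. The groups do not overlap at any of the 14, beside 89.7% of all 243 events without overlap. The smallest gap is at Mbnl1, whose highest wild-type library was at 29.3% and lowest 480/480 library at 34.5%.

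More events fell than rose. Of the 243 events 95 rose and 148 fell (60.9%). Regardless of direction, the median size of the change was 21.03 points, with a range from 10.2 to 88.3. With its sign, the median change was -13.97 points. The median size was 18.9 points among events that rose and 21.95 among those that fell. Skipped exons made up 184 events, of which 69 rose and 115 fell. Mutually exclusive exons had 35 events (17 higher), retained introns 12 (5 higher), alternative 3′ splice sites 6 (3 higher) and alternative 5′ splice sites 6 (1 higher). For mutually exclusive exons the direction is that of the exon the value follows, so it gives no net loss or gain. The 60.9% is the share to set beside the direction counts of the gene lists below. No difference from it was tested.

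**Figure D2:**
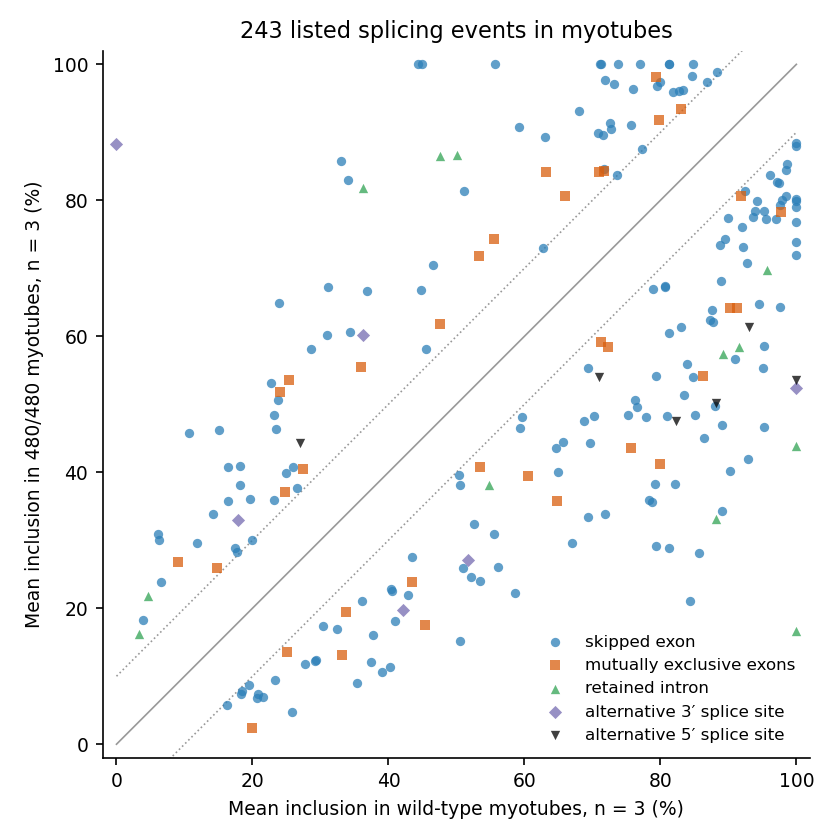
Mean inclusion in wild-type myotubes (horizontal axis, percent) against mean inclusion in 480/480 myotubes (vertical axis, percent) for the 243 listed events, by event type. The solid line marks no change and the dotted lines a change of 10 points, inside which the authors listed no event. Points below the lines outnumber those above, 148 to 95.

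The 3 wild-type values did not overlap the 3 480/480 values at 218 of the 243 events (89.7%), beside 83.2% of all 549 listed events. All 35 mutually exclusive events and all 6 events at alternative 3′ splice sites were free of overlap, against 6 of the 12 retained introns. The median SD was 4.42 points in wild type and 5.43 in 480/480, and 168 events had an SD under 10 points in both groups. An SD of 20 points or more in either group was found at 24 events, and each of these had a library at 0% or 100%.

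The skipped exons were short and kept the reading frame more often than other exons. The 184 skipped-exon events concern 178 exons, each of which matches an annotated exon exactly, and for 148 of them a transcript that skips the exon is annotated too. Of the 178 exons 132 are wholly coding, 19 partly coding, 14 lie in a 5′ UTR and 13 in non-coding transcripts. Among the 132 coding exons 83.3% have a length that is a multiple of 3, beside 41.0% of 162679 other internal coding exons of the annotation and 55.4% of the 8470 of those that have an annotated skipping junction. Their median length was 84 bases, against 123 and 105 bases. The share was 88.2% of the 85 coding exons that fell and 74.5% of the 47 that rose. Over all 178 exons, coding or not, 70.2% are multiples of 3. These are descriptions without a test, since exons of one gene are not independent and the authors' selection favours exons with many reads.

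Exons of 30 bases or fewer were frequent. There were 16 such exons among the 178 (8.99%), 7 higher and 9 lower, and all 16 have a length that is a multiple of 3. Among the 132 wholly coding exons 15 (11.4%) were this short. In the annotation 1.23% of other internal coding exons, and 5.99% of those with an annotated skipping junction, are this short. The shortest lie in Spp1 (3 bases), Clip1 and Lama2 (6 bases each), and Iffo1 and Psap (9 bases each). Reads that cross so short an exon are hard to place, and whether this moved the values was not tested.

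**Figure D3:**
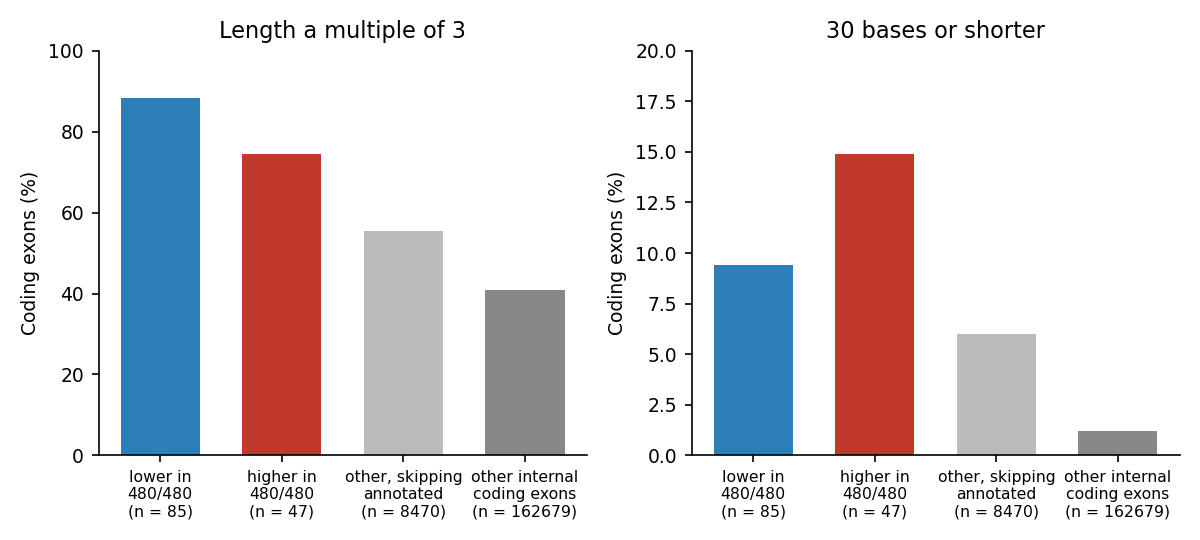
Percent of coding exons whose length is a multiple of 3 (left, axis from 0 to 100) and percent of 30 bases or shorter (right, axis from 0 to 20), for skipped exons that fell (n = 85) or rose (n = 47) in 480/480 myotubes and for other internal coding exons with (n = 8470) or regardless of (n = 162679) an annotated skipping junction. The left bars stand at 88.2%, 74.5%, 55.4% and 41.0%.

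The share of exons with a YGCY word was close to that of other exons of the same length. Counting on the transcript strand the same words, of which neighbours may share a base, coding exons that rose held 1.70 words per 100 bases and those that fell 1.503, beside 1.52 in other internal coding exons. With the exons that are not wholly coding included, the densities were 1.73 and 1.43. Each density sums words and bases over its set, so long exons weigh most. Coding exons that rose had a median length of 86 bases. The longest of them lie in Dst (2703 bases, 0.925 words per 100) and Rab11fip5 (2019 bases, 1.88 words per 100). A word was present in 60.9% of 46 coding exons that rose (1 has a length no other exon shares) against 60.3% of other coding exons of the same lengths, and in 58.8% of the 85 that fell against 58.8%. The introns around the exons, where MBNL sites often lie, were not analysed here.

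Troponin T genes gave some of the largest and tightest changes. Troponin T ties the troponin complex to tropomyosin on the thin filament, and its short exons near the amino end are swapped during development. Tnnt2, cardiac troponin T, which young skeletal muscle also uses, included its 30-base exon (chr1:135843785-135843814, plus strand) at 23%, 25.7% and 23% in the wild-type libraries and 67.7%, 55.1% and 72.1% in the 480/480 libraries. All 3 of the 480/480 libraries lay well above all wild-type libraries, and the mean went from 23.9% ± 1.56 to 64.97% ± 8.82. The same exon between other neighbouring exons was at 10.9%, 10.3% and 10.9% in the wild-type libraries and 46.2%, 35.7% and 55.3% in the 480/480 libraries, a rise by 35.03 points. The authors' deposited table lists an FDR of 0 for both.

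The mutually exclusive events of Tnnt2 involve the same exon. In transcripts that hold either a 12-base exon upstream (chr1:135842015-135842026) or the 30-base exon, the 12-base exon was used at 81.8%, 79% and 79% in the wild-type libraries and 39.8%, 49.1% and 34.7% in the 480/480 libraries. It fell by 38.7 points without overlap as the 30-base exon rose. An 11-base exon fell from 91.3% ± 0.651 to 64.1% ± 6.57 against a 41-base form of the 30-base exon, which starts 11 bases earlier. A 52-base exon rose against the 11-base exon from 70.9% ± 11.97 to 84.2% ± 5.41, with the wild-type libraries spread from 57.2% to 79.3%. Without the third wild-type library the rise was 6.42 points in place of 13.3.

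Tnnt3, fast skeletal troponin T, had 8 events, 5 higher and 3 lower. Its 39-base exon (chr7:142507750-142507788, plus strand) was at 68.1%, 75% and 72.4% in the wild-type libraries and 97.7%, 97.5% and 97.7% in the 480/480 libraries. The 480/480 libraries agreed within 0.2 points and the mean between these neighbours went from 71.8% ± 3.48 to 97.6% ± 0.115. A 15-base exon (chr7:142504250-142504264) rose from 86.8% ± 3.86 to 97.5% ± 1.5.

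A second 15-base exon of Tnnt3 (chr7:142505516-142505530) lost in every pairing that listed it. Against the 39-base exon it fell from 45.4% ± 3.23 to 17.5% ± 0.52, from 33.1% ± 5.2 to 13.2% ± 1.3 and from 19.9% ± 3.08 to 2.43% ± 0.603 in 3 events with different neighbours. Against it, the first 15-base exon was chosen at 24.1%, 25.8% and 22.1% in the wild-type libraries and 52.7%, 51.1% and 51.8% in the 480/480 libraries, a rise by 27.9 points and, for its spread, the tightest change in the whole set. An 18-base exon further upstream (chr7:142504048-142504065) also gained on it, from 79.4% ± 5.22 to 98.1% ± 0.808. The 39-base exon rose against a 19-base exon downstream from 27.5% ± 3.25 to 40.4% ± 4.39. The pair of 15-base exons is printed here with capitals where the bases differ (7 of 15 positions are equal).
Tnnt3 first: aAgTCCAGGaGgaag
Tnnt3 second: aGgAAGTCCaAgaag

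Each listed event of the giant protein titin fell. Titin (Ttn) is the spring that runs from Z-disc to M-band, and its I-band exons set its stiffness. All 6 Ttn events fell. An 84-base exon (chr2:76838812-76838895) was at 84.8%, 74.1% and 70.8% in the wild-type libraries and 50.6%, 36.1% and 62.1% in the 480/480 libraries, without overlap. An 81-base exon fell from 86.4% ± 23.6 to 45.03% ± 13.4, but 1 wild-type library and 1 480/480 library were both at 59.1%. The other 4 fell by 11.1 to 15.4 points, from wild-type means of 88.8% to 92.5%. Without the 480/480 library listed second, the changes at an 81-base exon (chr2:76840233-76840313) and at a mutually exclusive exon (chr2:76854387-76854467) were -5.02 and -6.77 points, under the limit of 10. The 480/480 library listed second was the lowest at all 6 Ttn events.

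Nebulin (Neb), which spans the thin filament as a ruler of its length, had 8 events, 3 higher and 5 lower, none above 15.4 points. In a pair of 105-base exons the upstream one (chr2:52186012-52186116) fell against the downstream one from 71.3% ± 2.85 to 59.1% ± 4.67. As skipped exons the upstream one fell from 59.3% ± 3.14 to 46.5% ± 3.23 and the downstream one rose from 19.9% ± 2.33 to 30.1% ± 6.25. The pair is 38.1% identical, so its reads can be told apart by sequence. A 93-base exon (chr2:52153056-52153148) had events in both directions, 93.9% ± 0.862 to 78.4% ± 5.2 between one set of neighbours and 73.6% ± 4.88 to 83.8% ± 2.4 between another. The 93-base exons repeat in the gene, with up to 87.1% identity to another exon, so reads there are harder to assign and these values are less certain. The same holds for an 84-base Ttn exon (chr2:76832101-76832184) with a 94.0% identical copy, while the 84-base exon whose library values are given above has no copy over 67.9% identical.

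In the adaptors with PDZ and LIM domains 1 exon gained on another. Pdlim3, Pdlim5 and Pdlim7 encode proteins that hold alpha-actinin and kinases at the Z-disc or on stress fibres. In Pdlim3 a 188-base exon (chr8:45908469-45908656, plus strand) was used in place of a 68-base exon at 22.7%, 26.1% and 27.2% in the wild-type libraries and 64.1%, 46.1% and 50.7% in the 480/480 libraries. As skipped exons the 188-base exon rose from 11.8% ± 1.31 to 29.5% ± 7.0 and the 68-base exon fell from 20.6% ± 1.04 to 6.83% ± 2.45. In Pdlim5 a 92-base exon, or a 419-base form of it, rose against a 17-base exon in all 4 of its events, by 11.0 to 19.4 points. The smallest of these was 7.17 points without the first 480/480 library. Pdlim7 rose at a 119-base exon from 44.7% ± 4.79 to 66.9% ± 4.3, and also against a 17-base exon, from 47.6% ± 2.0 to 61.9% ± 4.91.

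Other sarcomere and Z-disc genes changed in both directions. Of the 86 genes of that list 12 had 44 events, 22 higher and 22 lower, with a median size of 14.98 points against 21.03 over all events. Sorbs2, an adaptor of the Z-disc and the actin cytoskeleton, rose at a 93-base exon from 26.5% ± 2.72 to 37.6% ± 2.78. Trim55, a muscle ubiquitin ligase bound to titin and microtubules, fell at a 288-base exon from 52.6% ± 3.26 to 32.4% ± 3.4. Smyd1, a muscle methyltransferase needed for myosin assembly, rose at a 39-base exon from 45.5% ± 4.35 to 58.1% ± 4.14. Mylk, myosin light chain kinase, averaged 97.2% ± 4.85 in wild type and 82.6% ± 16.2 in 480/480, with a library at 100% in both groups. Without the first or the third 480/480 library its change was -7.2 or -23.2 points.

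**Figure D4:**
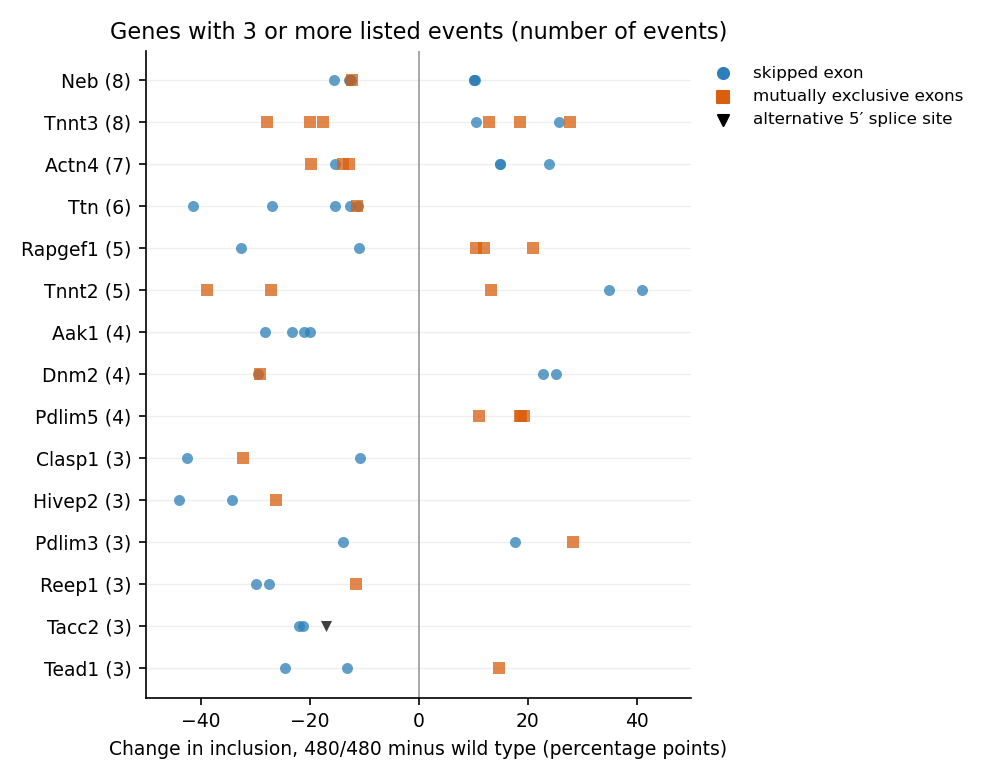
Change in inclusion, 480/480 minus wild type in percentage points (horizontal axis), of each event in genes with 3 or more events, with the number of events in brackets and the event type by colour and shape. Ttn, Aak1, Clasp1, Hivep2, Reep1 and Tacc2 have events on the left of zero alone, Pdlim5 on the right alone, and the other genes drawn on both sides.

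Genes of excitation and calcium signalling lost exons. The calcium list had 57 genes, of which 3 had 1 event each, and all 3 fell, beside 60.9% of all 243 events. Cacna1s, the voltage sensor of skeletal muscle that opens the calcium release channel, included a 57-base exon (chr1:136104570-136104626, plus strand) at 43.6%, 35.8% and 33.9% in the wild-type libraries and 19.1%, 15.4% and 13.8% in the 480/480 libraries. The highest 480/480 library was 14.8 points under the lowest wild-type library and the mean went from 37.8% ± 5.14 to 16.1% ± 2.72. Cacna2d1, the auxiliary subunit of such channels, fell at another 57-base exon (chr5:16322539-16322595, plus strand) with 64.9%, 44.6% and 42.1% in the wild-type libraries and 13.5%, 18.6% and 13.6% in the 480/480 libraries. Camk2g, a calmodulin-dependent kinase, fell from 95.3% ± 4.36 to 78.4% ± 7.2.

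Reep1, which shapes the endoplasmic reticulum, fell at its 36-base exon (chr6:71799166-71799201, plus strand) in 3 events, the first with 78.4%, 76.6% and 78.7% in the wild-type libraries and 50.6%, 50.9% and 42.8% in the 480/480 libraries. Myof (myoferlin), a membrane repair and fusion protein of myoblasts, rose at a 39-base exon (chr19:37969907-37969945, minus strand) with 29.4%, 29% and 27.4% in the wild-type libraries and 51.3%, 57.5% and 65.5% in the 480/480 libraries. The lowest 480/480 library was 21.9 points above the highest wild-type library. Musk, the receptor kinase that organises the neuromuscular junction, fell at a 24-base exon from 69.4% ± 4.46 to 55.4% ± 3.22. Homer1, a scaffold of calcium channels, rose from 6.2% ± 6.41 to 30.1% ± 9.09 at a 36-base exon. Cd47, a surface protein that restrains phagocytes, at an exon annotated only in a transcript without a coding region, fell from 40.9% ± 7.75 to 18.1% ± 2.63.

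In Actn4 and Dnm2 the second exon of an equal-length pair gained on the first, and in Dnm2 the major exon switched. Actn4 is an actin cross-linking alpha-actinin, and Dnm2 is a dynamin that cuts vesicles from membranes and helps to form the tubules of muscle. Both genes keep a pair of coding exons of equal length, of which a transcript uses one. They are printed with capitals where the first and second exon differ, 21 of 86 bases in Actn4 and 44 of 139 in Dnm2.
Actn4 first: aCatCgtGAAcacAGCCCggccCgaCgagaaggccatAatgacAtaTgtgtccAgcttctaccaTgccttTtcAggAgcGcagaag
Actn4 second: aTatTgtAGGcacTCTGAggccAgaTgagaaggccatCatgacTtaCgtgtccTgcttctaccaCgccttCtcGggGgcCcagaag
Dnm2 first: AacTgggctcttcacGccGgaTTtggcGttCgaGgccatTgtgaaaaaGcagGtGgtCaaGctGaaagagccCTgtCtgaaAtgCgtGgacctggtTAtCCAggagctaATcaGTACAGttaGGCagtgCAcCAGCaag
Dnm2 second: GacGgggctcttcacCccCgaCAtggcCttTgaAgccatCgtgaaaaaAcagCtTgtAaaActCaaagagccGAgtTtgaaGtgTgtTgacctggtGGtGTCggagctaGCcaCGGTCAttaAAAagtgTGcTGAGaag

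In Actn4 the second exon was the major one in both groups, and the first 86-base exon (chr7:28911490-28911575, minus strand) was chosen over the second (chr7:28909903-28909988) at 43.2%, 41.7% and 45.5% in the wild-type libraries and 17.3%, 26.9% and 27.2% in the 480/480 libraries. As skipped exons the first fell from 32.4% ± 3.64 to 17% ± 3.81 and the second rose from 46.6% ± 3.47 to 70.5% ± 8.84, and no groups overlapped. Further downstream an 81-base exon (chr7:28895432-28895512) fell against a 60-base and against a 66-base exon, which share their start on the genome, from 72.3% ± 1.51 to 58.5% ± 5.12 and from 53.5% ± 4.39 to 40.8% ± 5.37. The 66-base and 60-base exons rose from 25% ± 3.11 to 39.97% ± 6.01 and 25.9% ± 2.79 to 40.8% ± 6.32.

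In Dnm2 the first 139-base exon (chr9:21478899-21479037, plus strand) was chosen over the second (chr9:21480407-21480545) at 63.7%, 69.1% and 61.5% in the wild-type libraries and 28.7%, 42.4% and 36.2% in the 480/480 libraries. Wild-type libraries used mostly the first, and 480/480 libraries mostly the second. The first fell as a skipped exon from 53.4% ± 7.07 to 24% ± 5.07. The second rose as a skipped exon with 24.8%, 20.3% and 24.4% in the wild-type libraries and 55.8%, 40.6% and 48.9% in the 480/480 libraries, and a 227-base form of it rose by 22.8 points. Identity between the exons is 75.6% in Actn4 and 68.3% in Dnm2, so reads of the pair differ in sequence.

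Among microtubule and centrosome genes the largest falls were in Rilpl1 and Clasp1. Of 75 listed genes 7 had 12 events, 3 higher and 9 lower (3 genes higher and 4 lower) beside 60.9% lower over all 243 events, a difference that was not tested, with a median size of 24.97 points. Rilpl1, which binds phosphorylated Rab proteins and is found at the centrosome and cilium, had a 24-base exon (chr5:124495899-124495922, minus strand) at 84.4%, 78.3% and 75.2% in the wild-type libraries and 28.4%, 26.4% and 32.8% in the 480/480 libraries. It fell by 50.1 points, and the gap between the groups was 42.4 points. An 88-base exon upstream in the same gene fell from 69.4% ± 8.65 to 33.4% ± 6.01. Clasp1, which stabilises microtubule plus ends, fell at a 108-base exon (chr1:118531978-118532085, plus strand) with 69.9%, 90.8% and 74.2% in the wild-type libraries and 24.4%, 41.3% and 42% in the 480/480 libraries. A 48-base exon of Clasp1 fell from 18.5% ± 4.42 to 7.83% ± 1.48, and the 108-base exon fell against a 63-base exon from 75.7% ± 14.7 to 43.5% ± 9.36.

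Slain2, which links plus-end proteins to microtubule growth, fell at a 78-base exon (chr5:72965804-72965881, plus strand) with 77.4%, 74.8% and 76.8% in the wild-type libraries and 44%, 56.4% and 51.7% in the 480/480 libraries. Tacc2, a centrosomal coiled-coil protein, fell at 141-base and 90-base exons from 70.3% ± 4.33 to 48.3% ± 3.83 and 64.6% ± 5.84 to 43.5% ± 8.82, and its longer form at a 5′ splice site fell from 70.9% ± 1.68 to 53.97% ± 7.25. Clip1, a plus-end tracking protein, rose at a 6-base exon from 16.4% ± 4.93 to 40.7% ± 10.6, and Dctn4, a dynactin subunit, at a 21-base exon from 23.7% ± 5.36 to 50.6% ± 7.47. Macf1, which joins actin to microtubules, rose at a 63-base exon from 17.5% ± 2.54 to 28.9% ± 6.58.

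Actin, spectrin and adhesion genes were split. Of 110 listed genes 21 had 31 events, 15 higher and 16 lower, with a median size of 17.6 points. Ablim1, an actin-binding LIM protein, fell at an 84-base exon (chr19:57077414-57077497, minus strand) with 35.4%, 32.9% and 38% in the wild-type libraries and 5.6%, 11.8% and 9.4% in the 480/480 libraries, while its relative Ablim3 rose at a 99-base exon from 72.6% ± 2.84 to 91.4% ± 3.67. Palm (paralemmin), which anchors membranes to the cortex, fell at a 132-base exon with 34.1%, 40.1% and 42.8% in the wild-type libraries and 14.5%, 9.4% and 7.9% in the 480/480 libraries. Fermt2 (kindlin-2), an activator of integrins, fell at a 33-base exon (chr14:45476418-45476450, minus strand) with 85.4%, 73.9% and 66.2% in the wild-type libraries and 42.4%, 55.6% and 47.1% in the 480/480 libraries. These groups were far apart at Ablim1 and Palm and closer at Fermt2, where 10.6 points separated them.

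Integrin beta-1 itself (Itgb1) fell at an 81-base exon from 40.6% ± 2.98 to 22.6% ± 3.07. Spectrin gene Sptan1 fell at a 60-base exon from 40.4% ± 3.82 to 22.8% ± 3.56, and Tjp1, a tight-junction scaffold, at a 240-base exon from 19.4% ± 0.907 to 8.73% ± 2.14. Scrib, a polarity protein, rose at a 63-base exon from 70.8% ± 2.6 to 89.97% ± 5.49, and Ppp1r12a, which guides myosin phosphatase to its substrate, at a 171-base exon from 75.7% ± 7.21 to 91.03% ± 3.95. Its relative Ppp1r12b fell instead, from 21.5% ± 6.21 to 6.93% ± 3.61. Ptk2, focal adhesion kinase, rose at a 155-base exon of a non-coding transcript, where every 480/480 library stood at 100% and wild type at 83%, 49.5% and 80.9%. Sptbn5 rose by 55.6 points, also at an exon of a non-coding transcript. Its wild-type libraries stood at 51.4%, 69.3% and 12.4% and every 480/480 library at 100%. Epb41l3, which ties spectrin and actin to the membrane, fell from 98.5% ± 2.6 to 80.6% ± 13.5, a change of -10.7 points without the first 480/480 library. Without the second wild-type library the rise of Ptk2 was 18.1 points in place of 28.9.

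Integrin signals reach Rap1 through Rapgef1, a guanine nucleotide exchange factor with 5 events. A 96-base exon (chr2:29720643-29720738, plus strand) fell with 78.4%, 88.5% and 75.9% in the wild-type libraries and 57.5%, 48.9% and 38.5% in the 480/480 libraries, and between other neighbours from 18.3% ± 1.8 to 7.4% ± 1.85. Upstream exons of 153 and 258 bases rose against it, from 63.2% ± 5.12 to 84.2% ± 4.01 at the 153-base exon and by 12.1 and 10.5 points in a pair of events at the 258-base exon. Smaller falls were seen at Plec (plectin), from 50.3% ± 2.26 to 39.6% ± 2.57 at a 15-base exon, and at Pard3, from 16.2% ± 4.21 to 5.83% ± 1.75. Cdc42bpa rose from 3.87% ± 2.0 to 18.2% ± 5.84 and Abi2 from 6.57% ± 3.09 to 23.9% ± 13.7. Without the 480/480 library listed first the rise of Abi2 was 9.83 points in place of 17.4. Dst had 1 wild-type library at 100% with all 480/480 libraries, and Sept4 overlapped as well (a change of -32.1 points, or -48.7 without the second wild-type library).

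Among genes of endocytosis, endosomes and lysosomes, Aak1 alone gave 4 of the falls. Of 86 listed genes 8 had 14 events, 4 higher and 10 lower (2 genes higher, 5 lower and 1 in both directions), with a median size of 28.5 points. Over all 243 events 60.9% were lower, and the difference was not tested. Aak1, the kinase of the clathrin adaptor, fell at 4 exons, and every wild-type library stood at 100% at each of them. Its 480/480 libraries were at 77.2%, 70.6% and 67.9% at a 102-base exon, 74.8%, 77.9% and 77.9% at another 102-base exon, 80.6%, 82.8% and 73.5% at a 96-base exon and 78.4%, 80.1% and 82% at a 111-base exon. Pld1, phospholipase D1, fell at a 114-base exon with 85.6%, 100% and 100% in the wild-type libraries and 44.2%, 51.4% and 44.2% in the 480/480 libraries. Vps39, a subunit of the complex that tethers late endosomes to lysosomes, fell at a 33-base exon (chr2:120346857-120346889, minus strand) with 45.9%, 39.4% and 35.4% in the wild-type libraries and 8%, 18.8% and 7.4% in the 480/480 libraries.

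Stx2, a syntaxin of membrane fusion, rose at a 125-base exon from 31.1% ± 5.06 to 67.3% ± 9.85, and Tom1l2, an endosomal adaptor, at a 60-base exon from 82.7% ± 5.86 to 96.1% ± 2.08. Atg7, which starts autophagosome formation, fell at a 5′ UTR exon with 100%, 100% and 67.2% in the wild-type libraries and 54%, 28.1% and 20.7% in the 480/480 libraries. The lowest wild-type library of Atg7 was 13.2 points above the highest 480/480 library. Synj1, a lipid phosphatase of vesicle uncoating, used the longer form at a 3′ splice site, 3 bases longer, in every wild-type transcript counted (100% in each library) and at 49%, 59.1% and 49% in 480/480.

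Mitochondrial genes had 4 events in 3 of 21 genes. Dnm1l, the dynamin of mitochondrial fission, rose at a 78-base exon (chr16:16318764-16318841, minus strand) with 32.3%, 30.8% and 47.3% in the wild-type libraries and 71.8%, 75.6% and 52.6% in the 480/480 libraries and at a neighbouring 33-base exon from 14.2% ± 1.76 to 33.9% ± 8.64. The groups at the 78-base exon were 5.3 points apart. Mfn2, a fusion protein of the outer membrane, fell at an exon of its 5′ UTR, from 89.6% ± 5.08 to 74.4% ± 1.36, and Trak1, an adaptor that carries mitochondria along microtubules, fell at a 93-base exon from 68.8% ± 3.76 to 47.5% ± 2.4.

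Of the 83 genes on the list of RNA-binding and splicing factors, Mbnl1 had an event and no other did. The 54-base exon of Mbnl1 (chr3:60614683-60614736, plus strand), which is known to favour a nuclear location of the protein and to be repressed by MBNL1 itself, was at 15.4%, 29.3% and 25.9% in the wild-type libraries and 34.5%, 46.9% and 57.7% in the 480/480 libraries. The groups did not overlap, and the authors' deposited table lists an FDR of 0.0496, just under their limit. Celf and other Mbnl genes of the list had no listed event. The list does not hold Syncrip, an RNA-binding protein of the hnRNP family, which fell at a 160-base exon from 92.1% ± 5.55 to 76.03% ± 5.6 and was chosen after its values were seen.

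**Figure D5:**
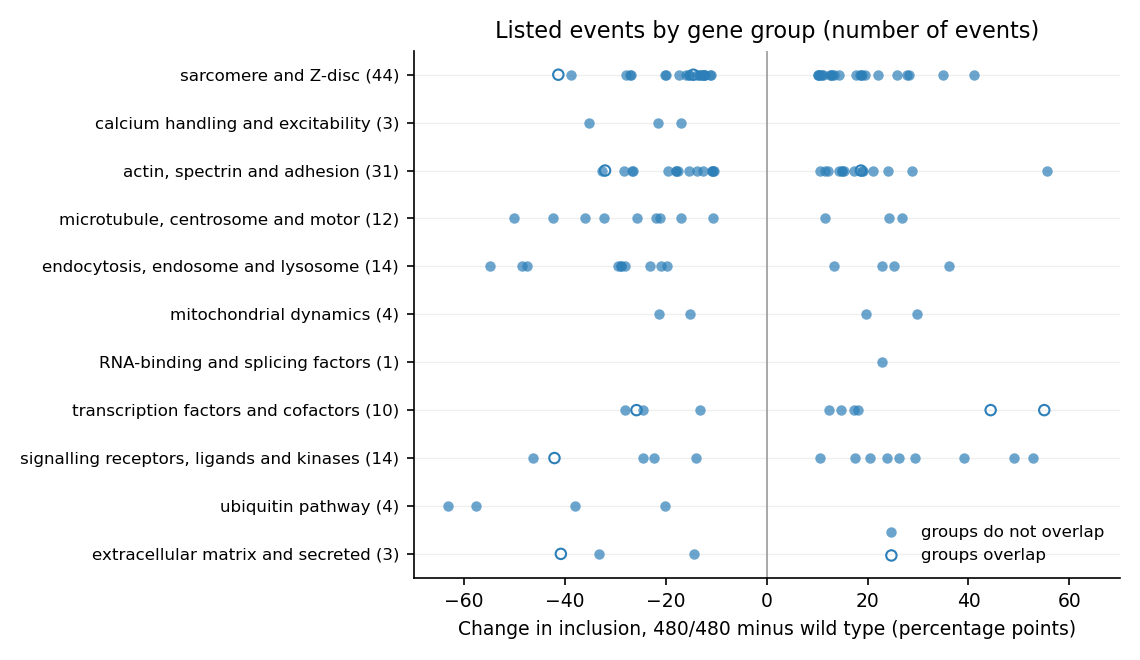
Change in inclusion, 480/480 minus wild type in percentage points (horizontal axis), of each event in 11 gene groups with the number of events in brackets, where filled points are events whose 3 wild-type and 3 480/480 libraries do not overlap and open points are events that overlap. Calcium, ubiquitin and matrix genes lie left of zero alone, and sarcomere and adhesion genes on both sides.

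Transcription genes had 10 events in 8 of 79 genes, 6 higher and 4 lower. Mef2d, a muscle transcription factor, used a 138-base exon (chr3:88158034-88158171, plus strand) in place of a 135-base exon at 24.9%, 25.8% and 23.7% in the wild-type libraries and 38.4%, 39.3% and 33.8% in the 480/480 libraries. Tead1, which reads Hippo signals and drives muscle promoters, fell at a 63-base exon from 55.5% ± 4.99 to 30.9% ± 3.08 and at a 12-base exon from 80.7% ± 2.16 to 67.5% ± 6.41. A further 63-base exon of Tead1 rose against the 12-base exon from 65.9% ± 4.64 to 80.6% ± 6.92. Nfix, which switches muscle from embryonic to fetal genes, rose at a 123-base exon with 67.1%, 75.5% and 71.9% in the wild-type libraries and 93%, 86.6% and 89.1% in the 480/480 libraries. Trrap, a subunit of acetyltransferase complexes, fell from 83.9% ± 11.03 to 55.9% ± 5.77. Trip4, Zfp939 and Nr1h2 had large mean changes with overlapping groups, and the wild-type libraries of Trip4 stood at 19.5%, 100% and 15.4%. Without the third wild-type library the rise at Zfp939 was 22.6 points in place of 44.4, at an exon of a non-coding transcript.

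Outside that list, Hivep2, a zinc finger protein, fell at 183-base and 122-base 5′ UTR exons from 82.2% ± 30.8 to 38.3% ± 16.7 and 90.9% ± 15.8 to 56.6% ± 13.2, the first with overlap. Prdm2 rose at a 77-base exon, where every 480/480 library was at 100% and wild type at 71.2%, 78.7% and 71.2%. Zeb1 fell at a 100-base exon of a non-coding transcript from 100% in each wild-type library to 77.4%, 79.4% and 64.6%.

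Among signalling genes the largest rises were in Csnk1g1 and Fgfr3. Of 72 listed genes 10 had 14 events, 9 higher and 5 lower (6 genes higher and 4 lower), with a median size of 25.5 points. This stands beside 60.9% lower over all 243 events, a difference that was not tested. Jag2, a Notch ligand, rose at a 114-base exon (chr12:112915605-112915718, minus strand) with 36.8%, 34.4% and 31.9% in the wild-type libraries and 66.8%, 51.4% and 63.8% in the 480/480 libraries. Fgfr3, a fibroblast growth factor receptor, rose at a 151-base exon with 45.3%, 26% and 30.7% in the wild-type libraries and 100%, 68.9% and 79.9% in the 480/480 libraries, and this exon lies inside an intron whose retention rose too, from 47.5% ± 10.6 to 86.6% ± 14.5, so the 2 values share reads. Csnk1g1, a casein kinase, rose at a 232-base exon with 49.4%, 19.6% and 29.9% in the wild-type libraries and 100%, 100% and 57.3% in the 480/480 libraries. This exon is in no annotated protein-coding transcript. The third 480/480 library was far below the other two there, though still above wild type. Fyn, a tyrosine kinase, rose from 73.2% ± 4.91 to 97.1% ± 5.08, and Pdp1, a mitochondrial phosphatase that activates pyruvate dehydrogenase, rose at a 35-base exon from 30.9% ± 15.9 to 60.2% ± 3.93. Strada fell at a 5′ splice site from 100% in each wild-type library to 11.2%, 60.2% and 89.3%, a spread that covers most of the scale. Its change was -46.4 points, or -25.2 without the first 480/480 library. Axl rose from 88.4% ± 4.29 to 98.9% ± 1.96, and Sema6c overlapped.

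Ubiquitin and matrix genes fell at each event, beside 60.9% of all 243 events. Of 51 ubiquitin genes 3 had 4 events. Josd2, a deubiquitinase, had the largest change of any skipped exon, at a 58-base 5′ UTR exon (chr7:44468360-44468417, plus strand) with 100%, 53% and 100% in the wild-type libraries and 11.4%, 19.8% and 32% in the 480/480 libraries. The second wild-type library was far below the other two and still above every 480/480 library. A 112-base form of the exon fell from 85.7% ± 24.7 to 28.1% ± 14.6. Fbxl12, an F-box protein, held the longer form, set by a 5′ splice site, at 100%, 64.5% and 100% in the wild-type libraries and 52.5%, 45.5% and 52.5% in the 480/480 libraries. Of 47 matrix and secreted genes Lama2, the laminin chain of the muscle basement membrane, fell at a 6-base exon with 100%, 100% and 92.8% in the wild-type libraries and 73.5%, 61.8% and 57.6% in the 480/480 libraries and at a 12-base exon from 94.3% ± 5.28 to 79.9% ± 8.22. Spp1 (osteopontin) had wild-type libraries at 38.3%, 99.2% and 100% and 480/480 libraries at 38.5%, 40.7% and 35.8% at a 3-base exon, so a single wild-type library sat with the 480/480 group. The change was -40.8 points with it and -61.3 without it.

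Many changes lay outside the lists, in 88 genes with 99 events, 33 higher and 66 lower, with a median size of 22.8 points. The share lower over all 243 events was 60.9%, and the difference was not tested. Prune2 fell at a 36-base exon (chr19:17211678-17211713, plus strand) with 67.5%, 59.6% and 67.5% in the wild-type libraries and 44.8%, 37.2% and 38% in the 480/480 libraries, and against a 39-base exon from 60.5% ± 4.89 to 39.5% ± 4.57. Tjap1, a protein of tight junctions and the Golgi, rose at a 30-base exon (chr17:46260880-46260909, minus strand) with 43.6%, 54.2% and 55.7% in the wild-type libraries and 89.4%, 71.7% and 83.1% in the 480/480 libraries. Mlip, a lamin-interacting protein of muscle that is on the list of muscle splice targets, fell from 79.3% ± 5.05 to 54.2% ± 2.44. Sh3pxd2a, a podosome scaffold, fell from 88.97% ± 3.59 to 68.1% ± 2.23, and Ndrg4 of the brain target list from 69.7% ± 10.02 to 44.2% ± 11.4. App, the amyloid precursor protein and also on that list, fell at a 168-base exon from 59.6% ± 2.04 to 48.1% ± 1.91. Rps24, a ribosomal protein, fell at an 18-base exon from 50.9% ± 4.92 to 25.9% ± 4.74 and, against a 20-base exon, from 33.8% ± 3.03 to 19.4% ± 3.62. Rusc1 had wild-type libraries at 100%, 43.6% and 100% and 480/480 at 35.1%, 38.2% and 13.4%. Tut7, an enzyme that adds uridines to RNA ends, fell from 78.8% ± 4.05 to 35.6% ± 13.9 at an exon annotated only in a transcript that is not translated.

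Of 93 genes listed for known mis-splicing in the muscle of myotonic dystrophy, 30 had 73 events, 31 higher and 42 lower, with a median size of 18.7 points. Of these 73 events 72 were free of overlap, beside 89.7% of all 243 events, and the exception was the 81-base exon of Ttn. Over all 243 events 60.9% fell. Neither difference was tested. This list was drawn up with earlier results of these data known, so its counts are no independent evidence. Known targets of adult muscle in the list with no event include Clcn1, Atp2a1, Ldb3, Bin1, Insr and Ryr1. Their absence shows that no event of theirs passed the authors' selection, not that inclusion was equal.

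Dmpk, the edited gene, changed in the choice among the 3′ splice sites of an exon near its 3′ end. The exon before the last ends at the same base in 3 forms that start at different places. The longest form, 215 bases (chr7:19092418-19092632, plus strand), is annotated only in transcripts marked for decay or with a retained intron. Against an 86-base form it was used at 51.6%, 50.5% and 53.1% in the wild-type libraries and 25.4%, 28.7% and 27.2% in the 480/480 libraries. Against the 90-base form, the coding exon of the annotated protein-coding transcripts, it was used at 45.1%, 41.3% and 40.2% in the wild-type libraries and 20.9%, 18.2% and 20.2% in the 480/480 libraries. The longest form fell by 24.6 and 22.4 points, with gaps of 21.8 and 19.3 points between the groups, and the authors' deposited table lists an FDR of 0 for both. Reads were aligned to mm10, which lacks the expanded repeat, and its effect on these values was not tested.

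At the other splice-site events, Acsl4, an enzyme that activates long-chain fatty acids, used the longer form at a 3′ splice site at 38.2%, 39% and 31.7% in the wild-type libraries and 68.8%, 49.9% and 61.7% in the 480/480 libraries. A second, nearly equal short form gave a rise by 15.2 points. Hoxa11os, an antisense RNA of the Hoxa cluster, was listed at 0% for its longer form in each wild-type library and at 65%, 100% and 100% in 480/480, so no ratio is given. Ralgapa1, which turns off Ral proteins, fell at a 5′ splice site with 88.2%, 77.3% and 81.3% in the wild-type libraries and 46.5%, 46.2% and 49.8% in the 480/480 libraries. Gtf2a2, a general transcription factor, overlapped at its 5′ splice site and fell from 86.2% ± 18.8 to 54.2% ± 9.27 at a mutually exclusive exon. Kat6b, an acetyltransferase, fell from 97.7% ± 4.04 to 78.3% ± 4.79.

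Retained introns were the least certain events. All 12 are annotated as retained in 1 or 2 transcripts that are not translated. Arglu1, whose intron retention is known to control its own level, was at 57.1%, 55% and 52.2% in the wild-type libraries and 38.8%, 36.4% and 39% in the 480/480 libraries, a fall that was small and tight. Tecpr1, which acts in autophagy, rose from 4.63% ± 1.54 to 21.7% ± 5.39, and the amino acid transporter gene Slc1a5 rose from 3.33% ± 2.89 to 16.2% ± 8.58. A230050P20Rik was at 100% in each wild-type library and at 21.8%, 21.8% and 6.5% in 480/480, and Pan2, a deadenylase, at 100%, 100% and 64.5% in the wild-type libraries and 21.4%, 23.8% and 54.2% in the 480/480 libraries. Carmil2, E4f1, Gtpbp4, Mpp4, Nr1h2 and Zfp653 overlapped. Mpp4 was at 100% in every wild-type library and at 100%, 10.7% and 20.8% in 480/480. At Carmil2 the wild-type libraries stood at 0%, 8.8% and 100%, which covers the whole range. Without the first or the third wild-type library the change at Carmil2 was 27.5 or 77.5 points in place of 45.6. Leaving out a single 480/480 library gave -20.6 points at E4f1 (the second), -16.03 or -40.9 at Nr1h2 (the second or the third) and -18.9 at Zfp653 (the first), in place of -31.8, -25.8 and -33.2.

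Large changes were mostly not the tight ones. Of 27 events that changed by 40 points or more, 5 had an SD under 10 points in both groups, beside 168 of all 243 events. Over all events 74 had an SD under 5 points in both groups. By change divided by the larger SD, with an SD under 1 point taken as 1, skipped exons that ranked high, 1 per gene, included those of Aak1, Rilpl1, Ablim1, Tnnt3, Reep1 and Palm. In wild type 12 events in 9 genes stood at 100% in every library, and in 480/480 10 events in 9 genes did. Just inside the limit of 10 points lay Neb (10.2, 10.2 and 10.3 points), Psap (10.2), Pard3 (10.4), Rapgef1 (10.5), Axl (10.5) and Slc44a2 (10.5). Events outside the limit are not in the tables.

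The 3 homozygous libraries did not move equally. Each library was set against the change of its group mean, taken as 100%. Over the 168 events whose SD stayed under 10 points in wild type and in 480/480, the median was 107% for the library listed first, 91.7% for the second and 102% for the third. The second was the nearest to wild type at 75 of these events, the third at 52 and the first at 35, with 6 ties. Over all 243 events the medians were 107%, 95.1% and 100%. The lists carry no replicate number, so which mouse a place stands for is not known.

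Of the 243 events 48 (19.8%) are also listed, with the same exons, for +/480 myotubes, where they make up 43.6% of 110 events. That comparison uses the same wild-type libraries, with identical values at all 48, so a shared direction is no independent evidence. Side by side, Lama2 fell by 33.3 points in 480/480 and by 18.5 in +/480 at its 6-base exon, Pld1 by 48.6 and 29.0, and Rps24 by 25 and 14.1. Prdm2 rose by 26.3 and 21.8. At 10 of the 48 the change was larger in +/480, among them Zfp653 (-33.2 points in 480/480 and -43.3 in +/480), E4f1 (-31.8 and -39.1) and Scrib (19.1 and 22.1). In 480/480 tibialis anterior 3 of the events are listed among 81 (3.70%) and in 480/480 choroid plexus 3 among 115 (2.61%). Both Josd2 events were lower in 480/480 tibialis anterior too, with changes of -56.97 and -51.6 points from 100% in each wild-type library, with 480/480 libraries from 16.7% to 83.9%. By the labels, tibialis anterior and myotubes come from the same mice.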

How the data were processed

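RNA-seq libraries of 3 wild-type and 3 480/480 FVB myotube samples were compared through the authors' splicing tables. Per the submitters' processing notes, reads were checked with FastQC and aligned with STAR to mm10, with no versions stated. The splicing caller was not given in the sources used here, and the deposited tables give, per event, library inclusion values as fractions, p-values and FDR, and an inclusion difference score (wild type minus 480/480), computed by the authors. Per the file headers, events were kept with at least 5 reads on average, an FDR of at most 0.05 and a change of at least 0.1. Each inclusion list is a deposited set of 3 fractions without replicate numbers, so libraries are named by place. Depth is unknown, and no counting interval is given.

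Fractions were turned into percentages, and changes recomputed from group means lay within 0.0333 points of the deposited differences. For mutually exclusive exons the value was taken to follow the first exon in transcript order, and skipped-exon events at the same exons had the matching sign in 28 of 28 checks. All 169 gene IDs matched a current symbol. Exon places, lengths and sequences came from GENCODE M21. The members, 15 gene lists and tests were chosen with earlier results of these data known. Named genes were the members of the lists with an event (up to 12 per list), the 15 largest and 15 tightest skipped exons, genes with 3 or more events or another event type, the members nearest the limit, and Dmpk. Other genes were named after their values were seen, and some genes that meet the rule are not reported here. The summaries were tested on simulated data. No test was added. Alternatives were a stricter FDR or change, 1 event per gene, no constant groups, an SD limit, group medians, other motif words and leaving out each library. Computation used Python 3.11.15 with NumPy 2.4.6 and SciPy 1.17.1; plots were drawn in matplotlib 3.10.9.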

Additional observations from a re-analysis of the deposited data

Results flagged for a closer look

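At 4 events every 480/480 library lay on one side of the wild-type mean in myotubes and on the opposite side of it in another tissue. The difference between the tissues was not tested. The intron of Slc1a5 was retained more in myotubes, by 12.8 points, and less in choroid plexus, where the change was -44.0 points with 480/480 libraries at 10.6% and 4.7%. Ggta1 changed by -50.9 points in myotubes and by 33.9 in tibialis anterior, where wild-type libraries stood at 82.7%, 34.7% and 57.1% and 480/480 libraries at 76.1%, 100% and 100%, so that the groups overlapped. Inf2 changed by -13.3 points in myotubes and by 38.3 in choroid plexus. Nfix changed by 18.1 points in myotubes and by -11.5 in choroid plexus. The choroid plexus tables list 2 values for 480/480. In wild type, Slc1a5 averaged 3.33% ± 2.89 in myotubes and 51.6% ± 5.68 in choroid plexus.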

How the results depend on the processing

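No paired analysis was possible because the library lists carry no replicate numbers. With an FDR of at most 0.01, groups did not overlap at 93.0% of events, and skipped exons that fell held 1.22 YGCY words per 100 bases. With a change of at least 20 points, 42 events rose and 88 fell, with a median size of 28.9 points, as the higher limit itself keeps fewer and larger events. Without groups constant at 0% or 100%, exons that rose held 2.09 words per 100 bases, in place of 1.73. This setting drops the 2703-base exon of Dst (0.925 words per 100 bases), the longest that rose. Long exons weigh most in these densities. How much of the shift comes from that exon was not tested. With an SD under 10 points in both groups, 100% of events were free of overlap. As each listed event changed by 10 points or more, this limit itself favours separate groups, and so does a stricter FDR. With TGCT and CGCT alone, which counts fewer words, the densities were 1.02 and 0.684 over all skipped exons that rose and fell, coding or not. Wholly coding exons that rose and fell held 0.991 and 0.651, beside 0.769 in other internal coding exons. Leaving out 1 library at a time gave 88 to 92 events that rose and 141 to 148 that fell. The median size was then 20.6 to 21.7 points, and 90.9% to 93.0% of events were without overlap. Fewer values in a group also leave less room for overlap. No event changed sign when a library was left out, so the lower counts are no changes of direction. At 30 events the change went under 10 points when some library was left out. A change moved by over 1.5 times at 22 events. Group medians moved 3 of 163 named events by more than their SD: Actn4 (-11.2 points), Fyn (29.6) and Pan2 (-76.2). YGCY words in the flanking introns, and a window of another width there, were not run. Read depth is unknown, so values at 0% and 100% carry no stated precision. The share of exons with a word against exons of the same lengths, and the sets of wholly coding exons, were chosen after seeing the data.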

Other observations

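Events also lay in RNAs that code for no protein. Meg3, an imprinted long non-coding RNA, had inclusion of a 94-base exon at 0%, 0% and 18.2% in the wild-type libraries and 24.2%, 39.3% and 29.2% in the 480/480 libraries, without overlap. 1700001L05Rik rose at a 485-base exon from 84.7% ± 1.56 to 98.3% ± 3.0, and 1700123M08Rik had a 267-base exon at 100%, 70.7% and 100% in the wild-type libraries and 21.5%, 46.7% and 52.3% in the 480/480 libraries.

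Of the 178 skipped exons 16 are annotated only in transcripts marked for decay, with a retained intron or processed without a coding region. Among them Ttc23 rose at a 49-base exon with 20.1%, 13.1% and 12.2% in the wild-type libraries and 47.6%, 52.1% and 39.1% in the 480/480 libraries. Wsb1, a ubiquitin ligase adaptor, rose from 23.1% ± 4.5 to 35.9% ± 4.3 at a 176-base exon, and Lrrfip2 fell from 29.4% ± 4.5 to 12.3% ± 7.25 at a 45-base exon. Brf1, a factor of RNA polymerase III, rose from 71.3% ± 15.6 to 100% ± 0 at a 32-base exon, where every 480/480 library was at 100%. These genes were chosen after their values were seen.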
